A study of Mus musculus with 12 samples.

Results

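The interferon regulatory factors are DNA-binding proteins that carry interferon and microbial signals to genes of defence and of blood cell development. The 8 family members described here are Irf1, Irf2, Irf3, Irf4, Irf5, Irf7, Irf8 and Irf9. Their chromatin was read from all regions of open chromatin over the gene body with 10 kb on either side (mm10), for Irf8 up to 80 kb downstream of its start site, together with regions that the authors' comparison tables annotated to a member. This gave 51 regions of 73156 in the series. Of these 8 hold a member's start site, 20 lie in a gene body, 22 in the flanks and 1 at another gene's start site. A peak was called in all 12 libraries at 26 regions, in 2 to 11 at 17 and in 1 at 8. Irf2 had 17 of them, Irf8 14, Irf5 5, Irf1 and Irf4 4 each, Irf7 3, and Irf3 and Irf9 2 each.

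The series used ATAC-seq, in which a transposase cuts open DNA and so marks accessible chromatin. The cells were granulocyte-monocyte progenitors from C57BL6 mouse bone marrow that carry ER-HOXA9, a fusion of the estrogen receptor to the leukaemia-associated factor HOXA9. All groups were grown with stem cell factor and beta-estradiol, so ER-HOXA9 was held active in the controls too, and no group with HOXA9 switched off was analysed here. Day0 was taken untreated at the start. On day 2, Vehicle cells had received DMSO, LSD1i cells 200 nM GSK-LSD1, which inhibits the histone demethylase LSD1, 6MP cells 5 uM mercaptopurine, a purine analogue, and CER cells 5 uM cerulenin, a fatty acid synthase inhibitor. Combo cells had received all 3 drugs at these doses. Each of the 6 groups had 2 biological replicates, 12 libraries in all, so 4 day 2 libraries had GSK-LSD1 and 6 did not.

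The libraries held 42651 to 56398 called peaks. Median enrichment over background at regions open in all 12 libraries was 16.9-fold in 6MP replicate 1, 23.0-fold in CER replicate 2 and 28.3-fold to 42.7-fold in the others. Library names carry the letter P (both Day0 libraries), R (Vehicle 1, 6MP 2, CER 1 and Combo 2) or no letter, with no meaning given. No day 2 library carries P, so day and letter cannot be told apart in comparisons with Day0. A peak lay over or within 1 kb of 10 of 11 granulocyte-monocyte progenitor marker genes in all 12 libraries, and Elane had none in any. Peaks in all 12 libraries were also found at 4 of 6 B cell, 2 of 6 T and NK cell, 4 of 6 erythroid and megakaryocyte, 5 of 6 dendritic cell, 3 of 5 macrophage and 3 of 4 stromal and endothelial markers, so accessibility of these genes does not separate cell types here. Cd3g, Cd8a, Ncr1, Hba-a1, C1qa and Cdh5 had no peak in any library. As bulk chromatin gives a mean over cells, more cells with an open region and a more open region per cell cannot be told apart.

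In myeloid progenitors IRF8 is known as a factor of the monocyte and dendritic cell lineages, acting with PU.1 (Spi1), and its loss favours granulocytes. IRF4 is close to it in structure and serves in B cells, plasma cells, macrophages and dendritic cells. IRF3, IRF5 and IRF7 respond to pathogen sensors, IRF9 serves the response to type I interferon, IRF1 is induced by interferon gamma, and IRF2 opposes IRF1 at many sites. LSD1 works as a corepressor with GFI1 and GFI1B in blood cells.

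Promoter sequences are shown for the members whose start site held a motif of the interferon response or of GFI factors, as RefSeq gives them for GRCm38.p6, from 250 bases before to 50 bases after the start site. They are read 5′ to 3′ on the gene's strand, and capitals mark the matches. The windows are chr11:53769764-53770063 for Irf1, chr8:46739495-46739794 for Irf2 and chr8:120736108-120736407 for Irf8, all on the plus strand.
Irf1 promoter: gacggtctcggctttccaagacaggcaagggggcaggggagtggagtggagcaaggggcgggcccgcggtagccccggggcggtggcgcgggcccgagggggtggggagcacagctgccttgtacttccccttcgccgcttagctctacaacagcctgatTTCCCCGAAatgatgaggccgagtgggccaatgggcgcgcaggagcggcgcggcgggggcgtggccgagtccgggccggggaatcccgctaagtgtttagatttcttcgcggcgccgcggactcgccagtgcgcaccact
Irf2 promoter: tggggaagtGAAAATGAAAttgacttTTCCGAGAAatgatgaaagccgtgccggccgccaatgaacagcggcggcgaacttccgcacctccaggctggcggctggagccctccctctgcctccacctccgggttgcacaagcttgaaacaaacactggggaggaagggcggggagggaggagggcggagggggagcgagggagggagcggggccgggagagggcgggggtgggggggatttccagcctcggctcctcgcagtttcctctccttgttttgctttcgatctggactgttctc
Irf8 promoter: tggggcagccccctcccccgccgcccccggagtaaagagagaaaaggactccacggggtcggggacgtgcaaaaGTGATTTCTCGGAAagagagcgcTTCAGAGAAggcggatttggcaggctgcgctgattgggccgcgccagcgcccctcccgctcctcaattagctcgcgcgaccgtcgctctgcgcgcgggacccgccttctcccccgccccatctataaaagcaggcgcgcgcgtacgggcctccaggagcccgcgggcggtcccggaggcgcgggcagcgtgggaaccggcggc

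Both strands of 11 promoter windows of the 8 members were searched for 3 motifs. The interferon response core, GAAA, any 2 bases and GAAA, was found in Irf2 alone as GAAAATGAAA, 241 bases before its start site, and in 3.44% of all 32851 promoters. The gamma-activated sequence TTCNNNGAA was found once in Irf1, once in Irf2 and at 2 places in Irf8, and in 8.3% of all promoters. The GFI core AAATCAC was found in Irf8 alone, on the reverse strand as GTGATTT, overlapping its first TTCNNNGAA match, and in 3.2% of all promoters. A match is a match of letters, and binding was not measured.

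Values below are summit signals, log2 of the fragment pileup at a region's highest point over the library's background, centred on the library's median over 33368 regions called in all 12 libraries. A signal of 0 is thus the library's typical shared region. Positions are kb from the gene's RefSeq start site, positive downstream. Differences are log2 ± SE from a single limma fit over the 12 libraries, called at a Benjamini-Hochberg adjusted p below 0.05 over all regions tested. Where no peak was called in a library, the region has no value there.

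Every start site was open in all 12 libraries. Irf1 had the highest start-site signal, with a median of 2.21 (range 1.96 to 2.34) and 288 to 746 fragments at the summit. Irf2 followed with 1.79 (1.48 to 1.99) and Irf3 with 1.78 (1.60 to 2.13), and the Irf3 region also holds the start site of its neighbour Bcl2l12. The summit of the wide Irf2 region lay 1.47 kb downstream of the start site, so its signal is not that of the start site itself. Irf1, Irf2 and Irf3 overlapped in range and stood above Irf7 at 1.02 (0.77 to 1.35). Irf9 at 0.78 (0.44 to 1.05), Irf8 at 0.61 (0.20 to 0.82) and Irf5 at 0.34 (-0.30 to 1.07) came next and overlapped each other and Irf7. Irf4 had the lowest, -0.65 (-1.02 to -0.21), with 36 to 129 fragments. Its range lay below those of all other members but Irf5.

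**Figure D1:**
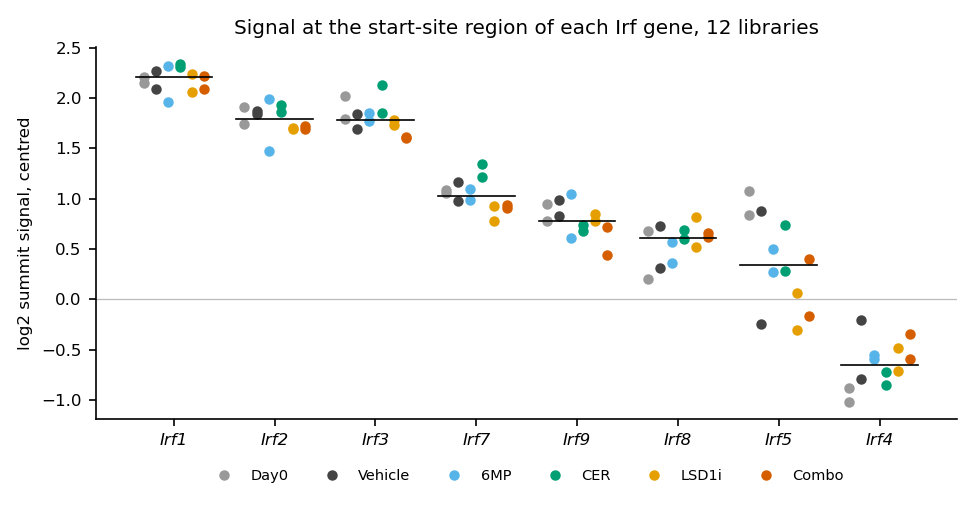
Centred log2 summit signal (y axis) at the start-site region of each of the 8 genes (x axis), with 1 dot per library coloured by group. Irf1, Irf2 and Irf3 lie between 1.48 and 2.34, and Irf4 lies between -1.02 and -0.21.

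With all 12 libraries, none of the 8 start-site regions was called in LSD1i, 6MP, CER or Combo against Vehicle, in Vehicle against Day0 or in Combo against LSD1i. For Irf5 this rested on Vehicle libraries that differed, at 0.88 and -0.25. The Irf5 start-site difference from Vehicle was -0.44 in LSD1i and -0.19 in Combo. Without Vehicle replicate 2 it was -0.9968 in LSD1i and -0.7545 in Combo, and both were then called lower. Without Vehicle replicate 1 neither was called. At the Irf8 start site the signal was 0.68 and 0.20 in Day0, 0.73 and 0.31 in Vehicle, 0.82 and 0.52 in LSD1i, 0.36 and 0.57 in 6MP, 0.60 and 0.68 in CER and 0.62 and 0.65 in Combo. The Vehicle range held those of 6MP, CER and Combo and overlapped those of Day0 and LSD1i. GSK-LSD1 gave 0.15 ± 0.16 against Vehicle (95% interval -0.18 to 0.48, limma adjusted p = 0.637). At the Irf4 start site the LSD1i difference was -0.10 ± 0.20 (95% interval -0.51 to 0.31, limma adjusted p = 0.815).

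The largest rise against Vehicle, in LSD1i and in Combo, lay at the downstream end of Irf4. LSD1i against Vehicle called 2 of the 34 member regions tested, against 6.05% of all regions, and both were higher (4.0% of all regions were higher and 2.05% lower). Combo against Vehicle called 5 of 34, 4 higher and 1 lower, against 8.07% of all regions (4.96% higher and 3.11% lower). The median difference over member regions was -0.06 for LSD1i and -0.16 for Combo, beside -0.04 and -0.09 over all regions. Both comparisons use the same Vehicle libraries. With depth scaling in place of centring, the higher share of all calls was 84.5% in place of 66.1% for LSD1i and 97.2% in place of 61.5% for Combo. The median difference over regions called in all 12 libraries was then -0.23 for LSD1i and 0.12 for Combo. Of the member regions, 0 were then called for LSD1i and 2, both higher, for Combo. Calls over all regions were then 200 in place of 2501 for LSD1i and 1235 in place of 3445 for Combo. For LSD1i, leaving out Vehicle 1, LSD1i 1 or LSD1i 2 lowered the calls over member regions and over all regions. For Combo, leaving out Vehicle 1, Combo 1 or Combo 2 lowered both as well.

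The Irf4 region at +17.8 kb (chr13:30766624-30767424) covers the 3′ end of the gene, annotated as 3′ UTR in the authors' deposited table. Its signal was -0.73 and -0.99 in LSD1i and -1.0 and -0.63 in Combo. It was -2.30 and -2.0 in Vehicle, -2.12 and -2.57 in CER, -2.18 in 6MP replicate 2 and -2.10 in Day0 replicate 2, and no peak was called in 6MP replicate 1 or Day0 replicate 1. All 4 libraries with GSK-LSD1 lay above all others. The region was 2.45-fold higher in LSD1i than in Vehicle (1.29 ± 0.27, limma adjusted p = 0.00302) and 2.52-fold higher in Combo (1.34 ± 0.27, limma adjusted p = 0.00157). Combo and LSD1i differed by 0.04 ± 0.27 (95% interval -0.50 to 0.59). The exact two-sided permutation p for 4 against 5 day 2 libraries was 0.0159, which ranges that do not overlap give by themselves. The LSD1i call was lost without LSD1i replicate 1 (1.16, limma adjusted p = 0.106) and with depth scaling (1.14, limma adjusted p = 0.12), and the Combo call without Combo replicate 2 (1.15, limma adjusted p = 0.0663).

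The region at +15.2 kb (chr13:30763880-30764653) lies inside Irf4. Its signal was -1.0 and -1.08 in LSD1i, -1.15 and -0.67 in Combo, -1.73 and -1.81 in Vehicle, -1.21 and -1.53 in 6MP, -1.80 and -1.62 in CER, and -2.31 and -2.87 in Day0. The libraries with GSK-LSD1 were again above all others, and Day0 was below all day 2 libraries. Combo was 1.81-fold above Vehicle (0.86 ± 0.26, limma adjusted p = 0.0375), while LSD1i gave 0.73 ± 0.26 (limma adjusted p = 0.0934). The Combo call was lost on leaving out any library of that comparison, Vehicle 1 (0.90), Vehicle 2 (0.82), Combo 1 (1.10) or Combo 2 (0.62), with limma adjusted p from 0.0582 to 0.415, and with depth scaling (1.08, limma adjusted p = 0.0585). Vehicle exceeded Day0 by 0.82 ± 0.26, which was not called (limma adjusted p = 0.222), and Day0 also differs in library letter.

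Another Irf4 region, at +26.9 kb (chr13:30775592-30776445), was called as a peak in all 4 libraries with GSK-LSD1 and in none of the other 8. Its summit held 26 fragments in each LSD1i library and 50 in each Combo library, a signal of -2.16 and -2.40 in LSD1i and -1.68 and -1.71 in Combo. The series had 690 regions with this pattern (0.943% of all). Fisher's exact test over the 10 day 2 libraries gave p = 0.00476, the smallest possible, and an adjusted p of 0.157. By this test 9.09% of the 27296 regions examined were gained at an unadjusted p below 0.05, 0.385% were lost, and 0 passed after adjustment. Irf4 +26.9 kb was the only member region gained at the unadjusted level, a smaller share of those examined than the 9.09% over all regions.

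**Figure D2:**
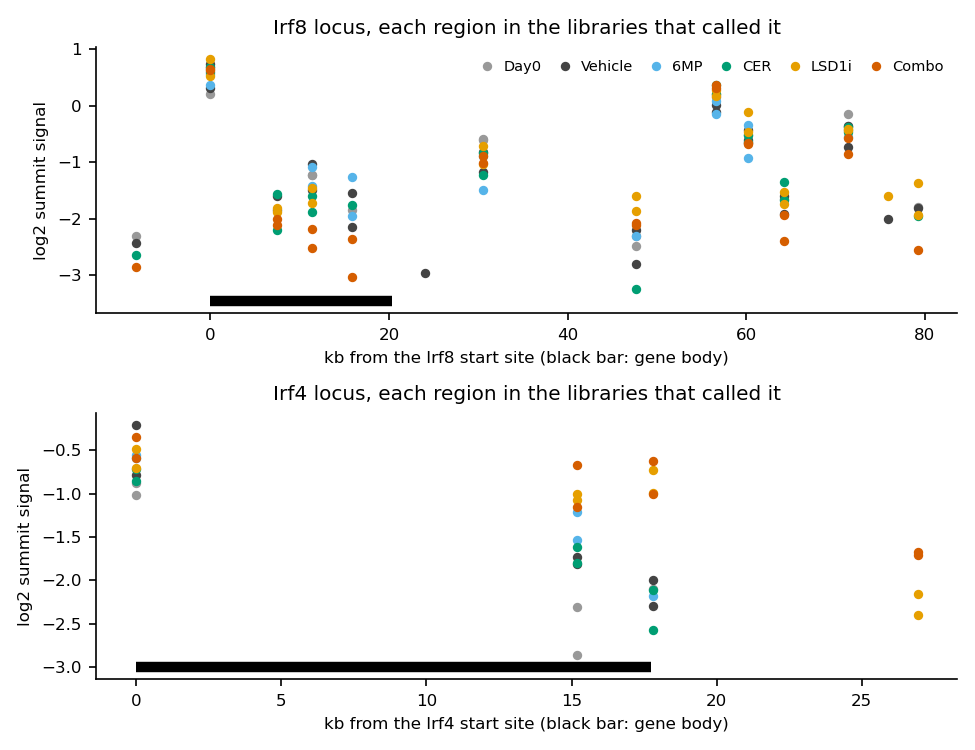
Centred log2 summit signal (y axis) of each region against its distance in kb from the start site of Irf8 (top) and Irf4 (bottom), with 1 dot for each library that called a peak, coloured by group, and the gene body as a black bar. At Irf4 the LSD1i and Combo dots lie above the rest at +15.2 and +17.8 kb and are the only ones at +26.9 kb, while at Irf8 the lowest Combo dots at +11.4 kb reach -2.51.

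At Irf5, a factor activated by Toll-like receptor signalling through MyD88, a region upstream of the start site rose in LSD1i and in Combo. The upstream region at -1.84 kb (chr6:29523579-29524668) had signals of 0.34 and 0.39 in LSD1i and 0.26 in both Combo libraries. Vehicle had -0.60 and -0.26, 6MP -0.51 and -0.42, CER -0.22 and -0.59 and Day0 replicate 1 -0.31, with no peak in Day0 replicate 2. The GSK-LSD1 libraries did not overlap the rest. LSD1i was 1.74-fold above Vehicle (0.80 ± 0.17, limma adjusted p = 0.00344) and Combo 1.61-fold (0.69 ± 0.17, limma adjusted p = 0.00852), and Combo minus LSD1i was -0.11 ± 0.17 (95% interval -0.45 to 0.24). The LSD1i call was lost without Vehicle 1, LSD1i 1 or LSD1i 2 (0.63, 0.82 and 0.77, limma adjusted p 0.0582 to 0.0753) and with depth scaling (0.64, limma adjusted p = 0.937). The Combo call was lost without Vehicle 1, Combo 1 or Combo 2 (0.52, 0.68 and 0.69, limma adjusted p 0.0753 to 0.12) and with depth scaling (0.91, limma adjusted p = 0.315). A weak region at +10.8 kb was called in both LSD1i libraries and in no other (Fisher's exact test p = 0.133, adjusted p = 0.635).

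At Irf2, the region at +38.5 kb in the gene body rose in Combo. The signal was -1.15 and -1.45 in Combo, -1.65 and -1.40 in LSD1i, -2.35 and -2.18 in Vehicle, -1.75 in 6MP replicate 2, -1.87 and -1.62 in CER and -2.37 and -1.87 in Day0. Combo exceeded Vehicle by 0.96 ± 0.27 (limma adjusted p = 0.0239), a 1.95-fold difference, and LSD1i by 0.74 ± 0.27 (limma adjusted p = 0.104). The Combo call was lost without Vehicle 1 (0.87), Combo 1 (0.81) or Combo 2 (1.11), with limma adjusted p of 0.0776 to 0.245.

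In Combo against Vehicle, the member region that fell was at Irf8. It lies at +11.4 kb (chr8:120747361-120748244), in the gene body, and had signals of -2.51 and -2.19 in Combo, the 2 lowest values of the 12. LSD1i had -1.73 and -1.45, Vehicle -1.50 and -1.04, 6MP -1.08 and -1.42, CER -1.61 and -1.89, and Day0 -1.23 and -1.24. Combo was 2.11-fold below Vehicle (-1.08 ± 0.26, limma adjusted p = 0.0070). LSD1i gave -0.32 ± 0.26 (limma adjusted p = 0.513), CER -0.48 ± 0.26 (limma adjusted p = 0.479), and 6MP 0.02 ± 0.27 (limma adjusted p = 1.0). The authors' deposited LSD1i table lists the region as closed (log2 fold -0.53, FDR 0.015). Combo minus LSD1i was -0.76 ± 0.26 (95% interval -1.28 to -0.24) and was not called (limma adjusted p = 0.229). The Combo call was lost without Vehicle 2 (-0.85, limma adjusted p = 0.109) or Combo 1 (-0.92, limma adjusted p = 0.123), and with depth scaling (-0.86, limma adjusted p = 0.217). The neighbouring region at +15.8 kb was called in 5 of 6 day 2 libraries without GSK-LSD1, in neither LSD1i library, and in both Combo libraries at -2.37 and -3.04, with Combo minus Vehicle at -0.86 ± 0.31 (limma adjusted p = 0.0964). With the library letter as a block that difference was called (-0.86, limma adjusted p = 0.0238).

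Downstream of Irf8, where enhancers of the gene are known in mouse, 9 regions lay between +24.0 and +79.2 kb. Those at +30.5, +56.6, +60.2 and +71.4 kb were called in all 12 libraries, and the last of these lies in an intron of another gene in the authors' deposited table. The most open was +56.6 kb (chr8:120792565-120793606), with a median of 0.19 and a range of -0.15 to 0.36. It did not pass the test in LSD1i (0.28 ± 0.15, limma adjusted p = 0.286) or in Combo (0.38 ± 0.15, limma adjusted p = 0.111). By limma no downstream Irf8 region was called in any comparison that tested it. The authors' deposited LSD1i table lists +71.4 kb as closed (log2 fold -0.43, FDR 0.0142), where limma gave 0.13 ± 0.18 (limma adjusted p = 0.717). The largest LSD1i difference among them was 0.77 ± 0.30 at +47.7 kb (limma adjusted p = 0.13). That weak region had no peak in 6MP replicate 1 or CER replicate 2. It was thus not tested in 6MP or CER against Vehicle or in GSK-LSD1 against the other day 2 libraries. Its signal was -2.11 to -1.61 in the 4 libraries with GSK-LSD1 and -3.25 to -2.20 in the others with a peak, Day0 included.

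**Figure D3:**
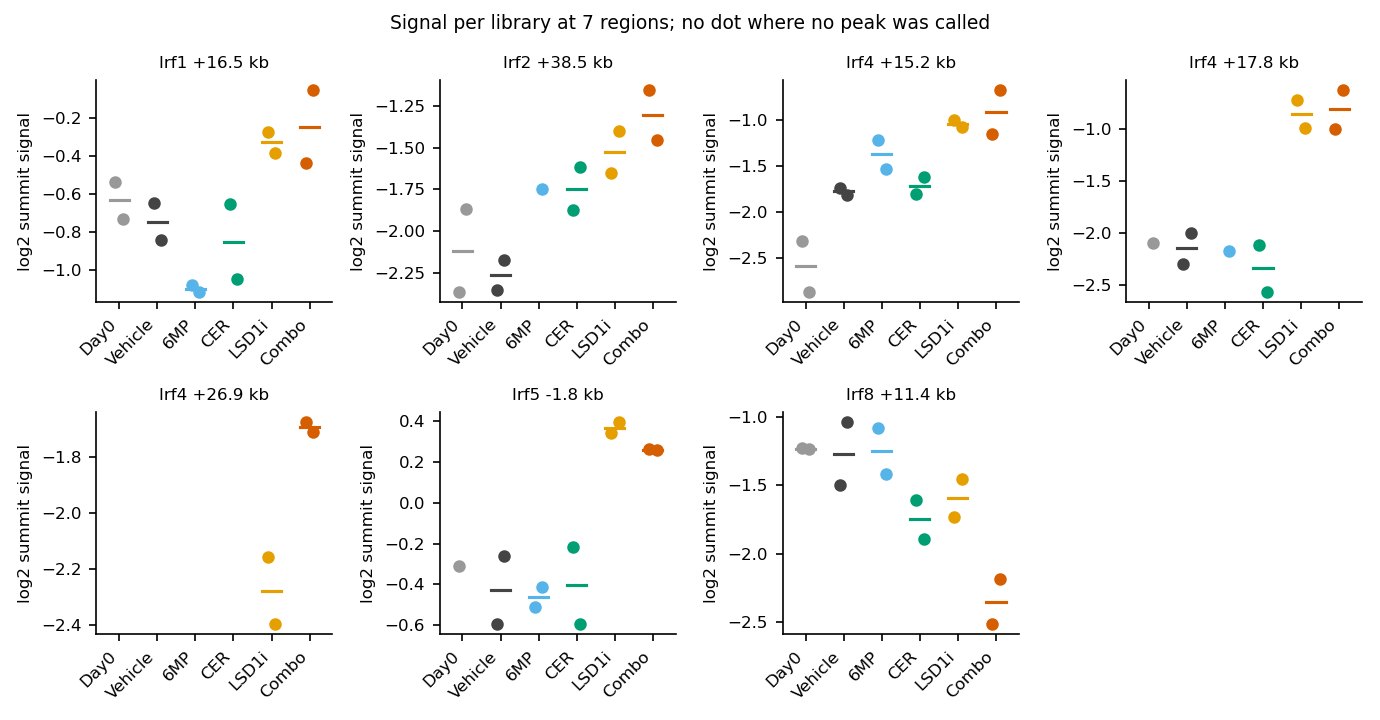
Centred log2 summit signal (y axis) per library in the 6 groups (x axis) at 7 regions, with a line at each group mean and no dot where no peak was called. LSD1i and Combo stand above the rest at Irf4 +15.2 and +17.8 kb, Irf5 -1.84 kb and Irf1 +16.5 kb and are the only groups at Irf4 +26.9 kb. LSD1i overlaps CER at Irf2 +38.5 kb, and Combo stands below the rest at Irf8 +11.4 kb.

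The 4 libraries with GSK-LSD1 were also set against the other 6 of day 2, as the mean of LSD1i and Combo minus the mean of Vehicle, 6MP and CER. Of 27 member regions open in all 10 libraries, 8 were called, 3 higher and 5 lower, against 24.7% of all regions (9.88% higher and 14.8% lower). The median was -0.08 for member regions and -0.09 for all. With depth scaling the median difference over regions called in all 12 libraries was 0.19. It gave 2579 higher and 36 lower regions in place of 3381 and 5079, and 3 member regions were called, all higher. Centring that follows mean signal gave 4440 and 3443, and 4 higher and 2 lower member regions. Leaving out 6MP replicate 1 raised the calls over member regions and over all regions. Leaving out Vehicle 1, LSD1i 2, CER 1, Combo 1 or Combo 2 lowered both.

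Among these 27 member regions, the one higher by most was Irf5 -1.84 kb (0.75 ± 0.11, limma adjusted p = 8.4e-06). Irf4 +17.8 kb was not tested here, as 6MP replicate 1 had no peak there. Its mean was 1.40 higher in the 4 libraries with GSK-LSD1 than in the 5 others of day 2 with a peak. Irf5 -1.84 kb kept its call in all 19 alternative settings, at 0.67 to 1.03. It was followed by Irf4 +15.2 kb (0.64 ± 0.17, limma adjusted p = 0.00626), a call lost without Combo replicate 2 (0.52, limma adjusted p = 0.0747). The third was a region at +16.5 kb beyond the end of Irf1 (chr11:53785522-53787042), at 0.61 ± 0.13 (limma adjusted p = 0.000659). Its signal was -0.27 and -0.38 in LSD1i, -0.44 and -0.05 in Combo, -0.65 and -0.84 in Vehicle, -1.08 and -1.12 in 6MP, -0.65 and -1.05 in CER and -0.54 and -0.73 in Day0. All 4 GSK-LSD1 libraries were above the other 8. Against Vehicle alone the Irf1 difference was 0.46 and was not called (limma adjusted p = 0.0864).

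These 3 regions and Irf7 +0.18 kb were the member regions whose ranges did not overlap between the 4 and the 6 libraries. This made 3 of 27 higher (11.1%) and 1 lower (3.7%), beside 5.77% and 6.64% of all regions. Ranges that do not overlap give by themselves the smallest exact two-sided permutation p, 0.00952, and fix the order within each library letter too. At Irf4 +15.2 kb, Irf5 -1.84 kb and Irf1 +16.5 kb, among libraries with the letter R, Combo 2 (-0.67, 0.26 and -0.05) was above Vehicle 1, 6MP 2 and CER 1. Among day 2 libraries with no letter, LSD1i 1, LSD1i 2 and Combo 1 were above Vehicle 2, 6MP 1 and CER 2.

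The 5 lower regions moved less. Irf8 +11.4 kb gave -0.55 ± 0.17 (limma adjusted p = 0.0173), with overlapping ranges of -2.51 to -1.45 and -1.89 to -1.04. A region at -9.19 kb from Irf7 that holds the start site of Cdhr5 gave -0.47 ± 0.16 (limma adjusted p = 0.0289). The Irf5 start site gave -0.40 ± 0.15 (limma adjusted p = 0.0405), with values of 0.88 and -0.25 in Vehicle. Irf2 +71.7 kb, in the gene body, gave -0.32 ± 0.09 (limma adjusted p = 0.00883). The Irf7 start site, at 0.77 to 0.94 with GSK-LSD1 and 0.98 to 1.35 without, gave -0.25 ± 0.09 (limma adjusted p = 0.0406). With depth scaling none of the 5 was called, and Irf7 +0.18 kb turned to 0.04.

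Single libraries decided several of these lower calls. Against Vehicle alone, Irf8 +11.4 kb was the lower region still called. Irf8 +11.4 kb was lost without Vehicle 2, LSD1i 1, CER 1 or Combo 1 (-0.47, -0.48, -0.50 and -0.47). Irf7 -9.19 kb was lost without Vehicle 1, LSD1i 2, CER 2, Combo 1 or Combo 2 (-0.50 to -0.32). Irf5 +0.66 kb was lost without Vehicle 1, LSD1i 2, 6MP 2, CER 1 or Combo 1 (-0.36 to -0.22). Irf2 +71.7 kb was lost without Combo 1 (-0.29). The Irf7 start site was lost without Vehicle 1, LSD1i 1, LSD1i 2, CER 1, CER 2, Combo 1 or Combo 2 (-0.28 to -0.21), and with the library letter as a block (-0.22, limma adjusted p = 0.0869).

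**Figure D4:**
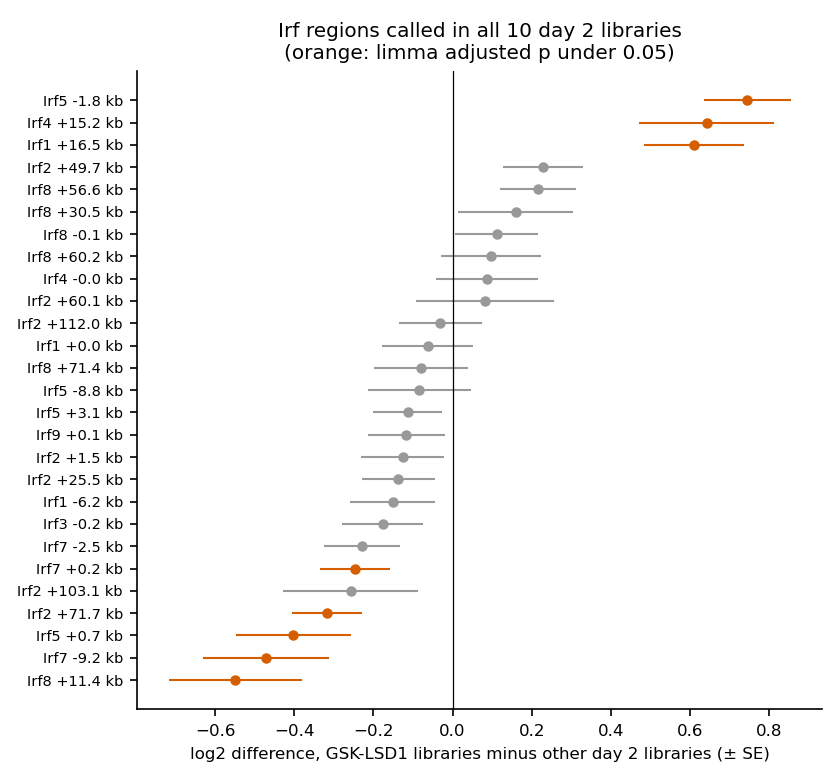
Log2 difference between the 4 day 2 libraries with GSK-LSD1 and the 6 without (x axis, bars are SE from limma) for 27 member regions (y axis), with called regions in orange. Irf5 -1.84 kb, Irf4 +15.2 kb and Irf1 +16.5 kb lie at 0.61 to 0.75, and the 5 lower calls lie between -0.55 and -0.25.

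The remaining drug comparisons called no member region. In 6MP against Vehicle 0 of 28 were called by limma and 0 had an unadjusted p below 0.05, beside 0.0% of all 37145 regions called and 1882 at that unadjusted level. In CER against Vehicle 0 of 31 were called, with 2 at the unadjusted level, beside 0.328% of all regions (0.154% higher and 0.174% lower). In Vehicle against Day0 the numbers were 0 of 28 and 5, beside 0.0812% of all (0.071% higher and 0.0101% lower). In Combo against LSD1i, which asks what mercaptopurine and cerulenin add, they were 0 of 34 and 3, beside 0.112% (0.0893% higher and 0.0229% lower). With depth scaling, 1 region in all was called in each of 6MP and CER against Vehicle, both lower, 1 in Vehicle against Day0, higher, and 138 in Combo against LSD1i, all higher. Centring that follows mean signal moved the higher share of calls from 46.8% to 32.3% in CER and from 79.6% to 92.4% in Combo against LSD1i. The 3 of Combo against LSD1i were Irf8 +11.4 kb, Irf2 +71.7 kb (0.29 ± 0.14, limma adjusted p = 0.444) and Irf4 +26.9 kb (0.58 ± 0.28, limma adjusted p = 0.453). The counts over all regions moved widely with single libraries. In CER against Vehicle, 1256 regions were called without Vehicle 1, 6 without Vehicle 2, 13 without CER 1 and 1 without CER 2, and 1061 with the library letter as a block, in place of 126. In Vehicle against Day0, 1241 were called without Vehicle 1, 1 without Vehicle 2, 7 without Day0 1 and 0 without Day0 2, in place of 32. Without Vehicle replicate 1, the Irf5 start site was called in Vehicle against Day0 (-1.20, limma adjusted p = 0.000449) and in CER against Vehicle (0.76, limma adjusted p = 0.0233).

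A total of 20 rows of the authors' deposited tables were annotated to the 8 members, and a row with a positive log2 fold is called opened. The LSD1i table held 13 rows over all 8 members, 2 opened and 11 closed. This stands beside 6.81% opened and 34.3% closed of 51629 regions, the number tested as estimated from the listed p-values and FDR. The opened rows were Irf4 at 1.20 (FDR 1.38e-07), which is the +17.8 kb region, and Irf5 at 0.33 (FDR 0.0492), which is the -1.84 kb region. Of the 11 closed rows 7 were annotated within 1 kb of a promoter, at Irf1, Irf2, Irf3, Irf5, Irf7, Irf8 and Irf9, with log2 folds of -0.77 to -0.32. At 6 of these 7 regions limma gave differences of -0.22 to -0.01 and no call, and the Irf8 region, at +15.8 kb, had no peak in LSD1i. The Irf5 region of these is the one in the gene body at +3.11 kb, and the Irf5 start-site region had no row. Before centring, the median LSD1i difference over regions called in all 12 libraries was -0.23, and its part in the authors' closed rows was not tested.

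The authors' deposited Combo table held 6 rows over 5 members, 4 opened and 2 closed, beside 12.8% opened and 2.15% closed of 53239 regions. Irf4 was opened at both gene-end regions (1.54 and 0.95), as were Irf5 -1.84 kb (0.73) and a region of Irf2 in intron 1 (0.60). Irf8 +11.4 kb was closed (-0.80). The Irf2 region, at +49.7 kb, had an FDR of 0.0475, and limma gave 0.37 ± 0.15 and no call (limma adjusted p = 0.149). The other closed row, at +7.11 kb from the Irf3 start site in an intron of Scaf1, had log2 folds of -1.32 in the authors' deposited Combo table and -1.24 (FDR 0.038) in their CER table. That CER row was the only member row there, beside 0.00636% opened and 0.358% closed of 47174 regions. Peaks were called in that Scaf1 intron in both Vehicle and both LSD1i libraries and in Day0 replicate 1, and in none of the 6MP, CER or Combo libraries. The authors' deposited Vehicle against Day0 table held no member row, beside 1.8% opened and 0.0677% closed of 39858 regions.

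**Figure D5:**
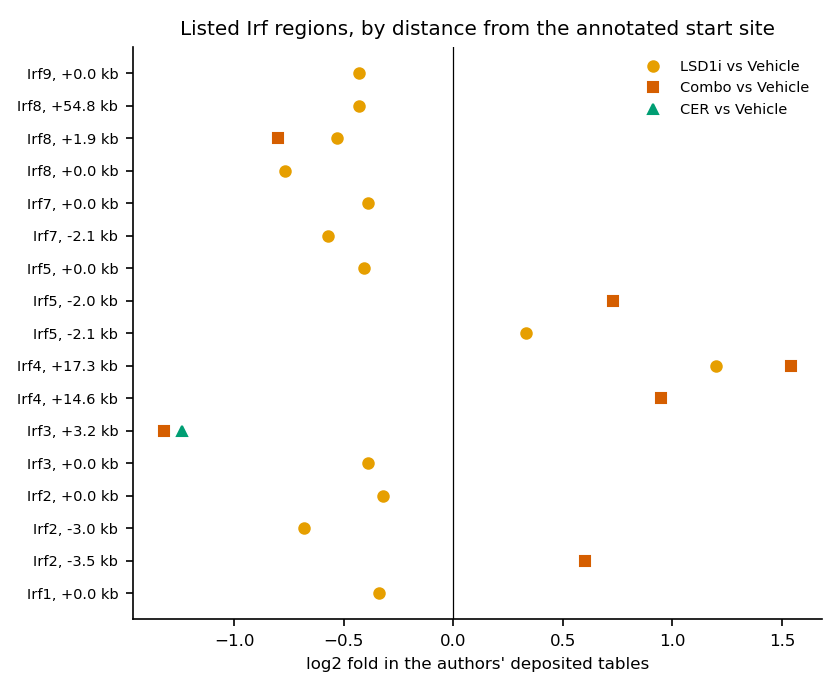
Log2 fold (x axis) of the 20 member rows in the authors' deposited tables, by gene and distance in kb from the start site as the authors annotated it (y axis), with a symbol for each comparison. Irf4 rows lie at 0.95 to 1.54, and the 7 closed LSD1i rows within 1 kb of a promoter lie between -0.77 and -0.32.

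Genes around the family were read from 3 lists of sensors and partners, interferon-stimulated genes, and genes of the IRF8 and IRF4 programme in mononuclear phagocytes, by the regions nearest to them in the comparison of GSK-LSD1 with the other day 2 libraries. Sensors and partners had 25 of 30 genes tested, and of their 115 regions 8 were higher and 18 lower, with a median of -0.08. Interferon-stimulated genes had 23 of 34 tested, and of their 47 regions 4 were higher and 9 lower, with a median of -0.07. Programme genes had 18 of 27 tested, and of their 118 regions 21 were higher and 8 lower, with a median of 0.08. All regions had a median of -0.09, with 9.88% higher and 14.8% lower. Each region was given to the gene with the nearest start site, with no limit on distance, so it can lie far from that gene.

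The regions below are named by the gene with the nearest start site, and their distances were not examined. They were chosen by the size of the difference alone, so they need not show the direction of most regions in a list. The sensors and partners named all rose, while their list had 8 regions higher and 18 lower. Among sensors and partners, the region of Ifngr1, a chain of the interferon gamma receptor (chr10:19505904-19507075), rose by 1.16 ± 0.15 (limma adjusted p = 6.7e-07). That of Tlr9, the sensor of unmethylated DNA (chr9:106229758-106231032), rose by 1.05 ± 0.11 (limma adjusted p = 7.8e-09). That of Ifnar1, a chain of the type I interferon receptor (chr16:91451743-91453062), rose by 1.04 ± 0.10 (limma adjusted p = 6.2e-09). In each, the 4 GSK-LSD1 libraries were above all 6 others, and at Tlr9 they held 0.48 to 0.81 against -0.57 to -0.15. Among interferon-stimulated genes, the region of Socs1, a feedback inhibitor of JAK kinases (chr16:10676581-10677101), rose by 1.09 ± 0.14 (limma adjusted p = 7.8e-07). The region of Ifit1, which binds viral RNA (chr19:34656142-34657152), rose by 0.67 ± 0.24 with overlapping ranges (limma adjusted p = 0.0358). That of Oas1a, a sensor of double-stranded RNA (chr5:120906880-120908274), fell by 0.78 on the log2 scale (-0.78 ± 0.16, limma adjusted p = 0.00073). Among programme genes, the region of Zeb2, a zinc finger repressor of mononuclear phagocytes (chr2:46370750-46372001), rose by 1.38 ± 0.10 (limma adjusted p = 5.3e-12). That of Prdm1, a target of IRF4 in plasma cells (chr10:44637887-44638947), rose by 1.25 ± 0.19 (limma adjusted p = 8.0e-06). That of Zbtb46, a marker of classical dendritic cells (chr2:181442812-181443706), rose by 1.02 ± 0.18 (limma adjusted p = 0.00012). Its ranges overlapped, at -1.34 to -0.55 with GSK-LSD1 and -2.43 to -1.08 without.

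Across the 12 libraries, the regions most like Irf1 +16.5 kb in signal were nearest to Laptm4a, Pde4d, Arhgap15, Gfi1 and Lmo4. Pearson's r was 0.947 for Laptm4a, 0.926 for Pde4d, 0.926 for Arhgap15, 0.919 for Gfi1 and 0.916 for Lmo4, the 5 highest genes over 33367 regions compared. The libraries share groups and differ in enrichment, so these values describe likeness alone.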

How the data were processed

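Tagmented DNA of 12 libraries was sequenced. Per the submitters' processing notes, MACS2 2.1.2 and DiffBind were used on mm10, with Trimmomatic 0.38, Bowtie2, Picard 2.18.26 and SAMtools 1.9. Their settings are not given in the sources used here. For each library the authors deposited a peak list, where each summit has an integer score, a fold ratio to local background and its −log10 p-value and q-value. No q-value exceeded 0.01. The authors' deposited comparison tables give log2 levels, log2 folds, p-values and FDR, listed up to an FDR of 0.05. They do not give the number of regions tested, which was estimated here from p-value, its rank and FDR. The table of 6MP against Vehicle was not used here.

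Read totals are not in the files. Each summit's pileup was recovered from its fold ratio and Poisson p-value and was a whole number at 100% of summits, to a tolerance of 0.001 in −log10 p. Depth was taken as the smallest background of a library (2.44 to 4.55 fragments). Median pileups were 50 to 75 and the smallest 10 to 14, which limits precision at weak regions. Peaks were joined into 73156 regions, 63037 of them called in 2 or more libraries.

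limma 3.58.1 in R 4.3.3 compared groups in a single fit over 12 libraries with a mean-dependent prior variance, tested on regions called in every library of a comparison. The method was tested on simulated data. Exact permutation and Fisher's tests used scipy 1.17.1. Exact tests of 2 against 2 cannot go below p = 0.333. Replicate numbers do not pair the libraries. Coordinates, names and promoters came from RefSeq (GRCm38.p6). The members and lists were chosen with earlier results of these data known. Named regions were the start sites and those past limma, at an unadjusted Fisher p below 0.05, or listed by the authors with a log2 fold of at least 0.5 in size. For each list, up to 3 genes past limma with the largest difference were named. Alternatives covered scaling, filters, peak threshold, samples in the fit, blocks, windows and each library left out.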

Additional observations from a re-analysis of the deposited data

Results flagged for a closer look

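At 2 of 38 sides of regions tested, a library stood apart from the others of its side by Dixon's test, where about 1 in 20 would do so by chance. At the Irf3 start site, CER replicate 2 had a signal of 2.13, and the next of the 6 day 2 libraries without GSK-LSD1 had 1.85. At the Irf2 start site, 6MP replicate 1 had 1.48, and the next had 1.84. These are the 2 libraries with the lowest enrichment over background, and the part of enrichment in these values was not tested.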

How the results depend on the processing

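With depth scaling, 0 member regions were called in LSD1i against Vehicle in place of 2, and 2 in Combo against Vehicle in place of 5. Calls over all regions were then 200 in place of 2501 for LSD1i and 1235 in place of 3445 for Combo. In the comparison of GSK-LSD1 with the other day 2 libraries, 3 member regions were called in place of 8. Over all regions it was 2615 in place of 8460. There Irf7 +0.18 kb reversed to 0.0379. On regions called in all 12 libraries the LSD1i and Combo counts were 0 and 2, since Irf4 +17.8 kb, Irf5 -1.84 kb and, for Combo, Irf2 +38.5 kb are not among them. Leaving out each library in turn gave 0 to 3 for LSD1i, 1 to 4 for Combo, 3 to 14 for GSK-LSD1 against the rest, and 0 to 1 for Vehicle against Day0 and CER against Vehicle. Added after seeing the data, leaving out 6MP 1 and CER 2 together gave 13 for GSK-LSD1 against the rest, and Vehicle alone as control gave 3. Calls over all regions moved with these choices as well. The replicate numbers do not count as pairing. Their deviations correlated at -0.344 to 0.246, and the replicate block gave the same member counts of 2, 5 and 8. The correlation was 0.246 for Vehicle with CER and 0.139 for 6MP with Combo, where R falls on the same replicate number. Where it falls on opposite numbers, the correlations were -0.344 to -0.038. The letter is not balanced between groups, as no LSD1i library carries R, and its part in these values was not tested. The library letter as a block gave 2, 7 and 8 member calls, beside 2661, 5249 and 8311 calls over all regions. The member calls of the last were 4 higher and 4 lower. The Irf7 start site lost its call (-0.22, limma adjusted p = 0.0869) and Irf2 +49.7 kb gained one (0.28, limma adjusted p = 0.0307). Of 236 alternatives for the 15 called results, 175 kept the call and 1 reversed; of 1374 for 109 uncalled results, 15 gave a call. The cause was not tested. The members' regions numbered 42 with 5 kb windows and 54 with the Irf8 window set from its 3′ end. Summits of 10 to 50 fragments limit the weakest regions.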
